A study of Rattus norvegicus with 4 samples.

Results

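The 10 genes described here are inflammatory cytokines, a prostaglandin enzyme and cytokine receptors of rat skeletal muscle. They are the ligands Il1a, Il1b, Il33, Il6, Lif and Tnf, the enzyme gene Ptgs2, and the receptor genes Il1r1, Il6st and Osmr. Each was taken by its exact symbol from the 25399 genes of the deposited gene table, and all 10 symbols were found once. The question asked of them was which cell class holds the transcripts of each ligand and which class holds those of its receptor, in each library. Of the 10 genes, 8 gave enough transcripts to be compared between cell classes. Il1a had 1 transcript in all 4 libraries together and Lif had 8, of which 5 lay in mast-like cells of 1 library.

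The study profiled single cells of 2 muscles of rats aged 12 months with 10x Genomics droplet 3′ sequencing, after enzymatic digestion of the muscle. The extraocular muscles (EOM) move the eye, and the tibialis anterior (TA) is a limb muscle. There were 4 libraries, 1 each for EOM labelled DMD, EOM labelled WT, TA labelled DMD and TA labelled WT. DMD is the abbreviation used in the labels, where WT stands for wild-type; the labels used here state no strain, no allele and no number of animals per library.

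The disease state was taken from the disease field of the sample labels. The sample titles state the opposite state in all 4 samples, so the groups are called labelled DMD and labelled WT throughout. Reading the titles in place of that field would turn every DMD over WT direction given here. The Dmd gene had 21.0 CPM (UMI counts scaled to a fixed library total) in EOM labelled DMD, 26.8 in EOM labelled WT, 25.4 in TA labelled DMD and 29.6 in TA labelled WT. It was lower in the library labelled DMD in both muscles. The labels used here do not say which part of the gene is altered, and a 3′ tag outside that part would not check a label, so this level was not used to choose between the readings.

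Interleukin 1 alpha, interleukin 1 beta and interleukin 33 belong to 1 cytokine family. They act through a specific receptor chain, Il1r1 or Il1rl1, paired with the shared chain Il1rap, and switch on NF-kB. Interleukin 6, leukaemia inhibitory factor and oncostatin M share the signalling chain gp130, encoded by Il6st, paired with a specific chain such as Il6r, Lifr or Osmr, and they act mainly through JAK kinases and STAT3. Tumour necrosis factor acts through its own receptors on NF-kB, and Ptgs2 encodes the inducible cyclooxygenase that starts prostaglandin synthesis. In injured muscle these signals are known to be exchanged between immune cells, vessels, fibro-adipogenic progenitors (FAPs) and muscle stem cells.

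The promoters of Il6 and Il1b are shown because these ligands came from different classes, Il1b from myeloid classes and Il6 from several vessel and connective tissue classes. Each run holds the 250 bases before the annotated start of the gene, read 5′ to 3′ on the strand of the gene, from RefSeq on build GRCr8. The deposited counts were made on build rn6, so these positions were not joined to the counts. In Il6 (chr4:5894576-5894825, minus strand) the capitals mark matches to the cyclic AMP response element core TGACGT and to the NF-kB motif of GGGA, any 4 bases and CC, each searched and found on both strands with overlapping letters. In Il1b (chr3:137036582-137036831, minus strand) they mark the TATA box TATAAA, searched on the strand of the gene only.
Il6: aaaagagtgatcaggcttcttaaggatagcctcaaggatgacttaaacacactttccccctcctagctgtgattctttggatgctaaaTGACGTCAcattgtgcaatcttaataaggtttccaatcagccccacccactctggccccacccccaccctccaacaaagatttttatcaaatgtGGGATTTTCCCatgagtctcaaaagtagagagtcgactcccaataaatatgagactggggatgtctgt
Il1b: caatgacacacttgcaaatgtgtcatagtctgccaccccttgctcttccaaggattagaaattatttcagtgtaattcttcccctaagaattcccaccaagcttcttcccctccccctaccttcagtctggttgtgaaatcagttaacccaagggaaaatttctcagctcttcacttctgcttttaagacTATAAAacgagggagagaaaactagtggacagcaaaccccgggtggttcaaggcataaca

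The Il6 run holds the cyclic AMP motif 162 to 155 bases and the NF-kB motif 68 to 58 bases before the start. RefSeq gave 10 promoters for 9 of the 10 genes. The NF-kB motif was in 1 of these 10 promoters, that of Il6, and in 16.4% of 33469 promoters of the same length over all genes. The cyclic AMP motif was likewise in Il6 alone, and in 6.95% of all promoters. The TATA box was in 4 of the 10, those of Il1a, Il1b and Tnf and 1 of the 2 of Il33, and in 8.06% of all promoters. The AP-1 motif TGANTCA, searched on both strands, was in those of Osmr and Il1a, and in 6.34% of all promoters. The STAT motif TTCNNNGAA, which reads the same on both strands, was in none of the 10, and in 7.67% of all promoters. A match of letters describes the sequence and does not show binding.

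The deposited libraries held 1917 to 8944 barcodes, and 13557 cells were analysed after filters and removal of likely doublets. The total UMI count per library ran from 9468266 to 20685086. The median cell held 4486 UMIs in EOM labelled DMD, 3654 in EOM labelled WT, 1221.5 in TA labelled DMD and 2482 in TA labelled WT, where a UMI marks 1 captured transcript. Clustering gave 32 clusters in 15 classes, each named "-like" after its marker genes. TA labelled WT held 22 FAP/fibroblast-like and 18 macrophage/monocyte-like cells, so the disease contrast in TA could be formed for endothelial-like, mural-like, satellite-like, myofibre-like and erythroid-like cells only. Different clusters made up some classes. FAP/fibroblast-like cells came mostly from a Ces1d-led cluster in EOM, with 573 of 688 labelled DMD and 186 of 231 labelled WT, but from an Apod- and Myoc-led cluster in TA labelled DMD, with 1118 of 1459. The Rasl11a-led cluster held 13 of 157 mural-like cells in EOM labelled DMD, 1 of 90 in EOM labelled WT, 731 of 1563 in TA labelled DMD and 14 of 180 in TA labelled WT. In TA labelled DMD the 269 erythroid-like cells carried haemoglobin in 20.9% of their UMIs, against 57.1% to 68.8% in the other libraries. Their summed endothelial markers reached 1992 CPM and their FAP/fibroblast markers 3684 CPM, with all 7 markers of each list detected, so they also carried RNA of other cells. In all, 22 barcodes were shared between libraries, 10 of them among analysed cells.

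All 4 groups held 1 library, so there is no replicate error, no test and no p-value, and every difference compares 2 libraries. Levels are CPM of the summed UMIs of a class in a library. Intervals are exact 95% intervals that cover counting error only. A gene was called past 2-fold when its log2 ratio, with 10 CPM added on both sides, reached 1 in either direction. In summed cells, more transcripts per cell and a larger share of cells with transcripts were not separated unless a share of cells is given.

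**Figure D1:**
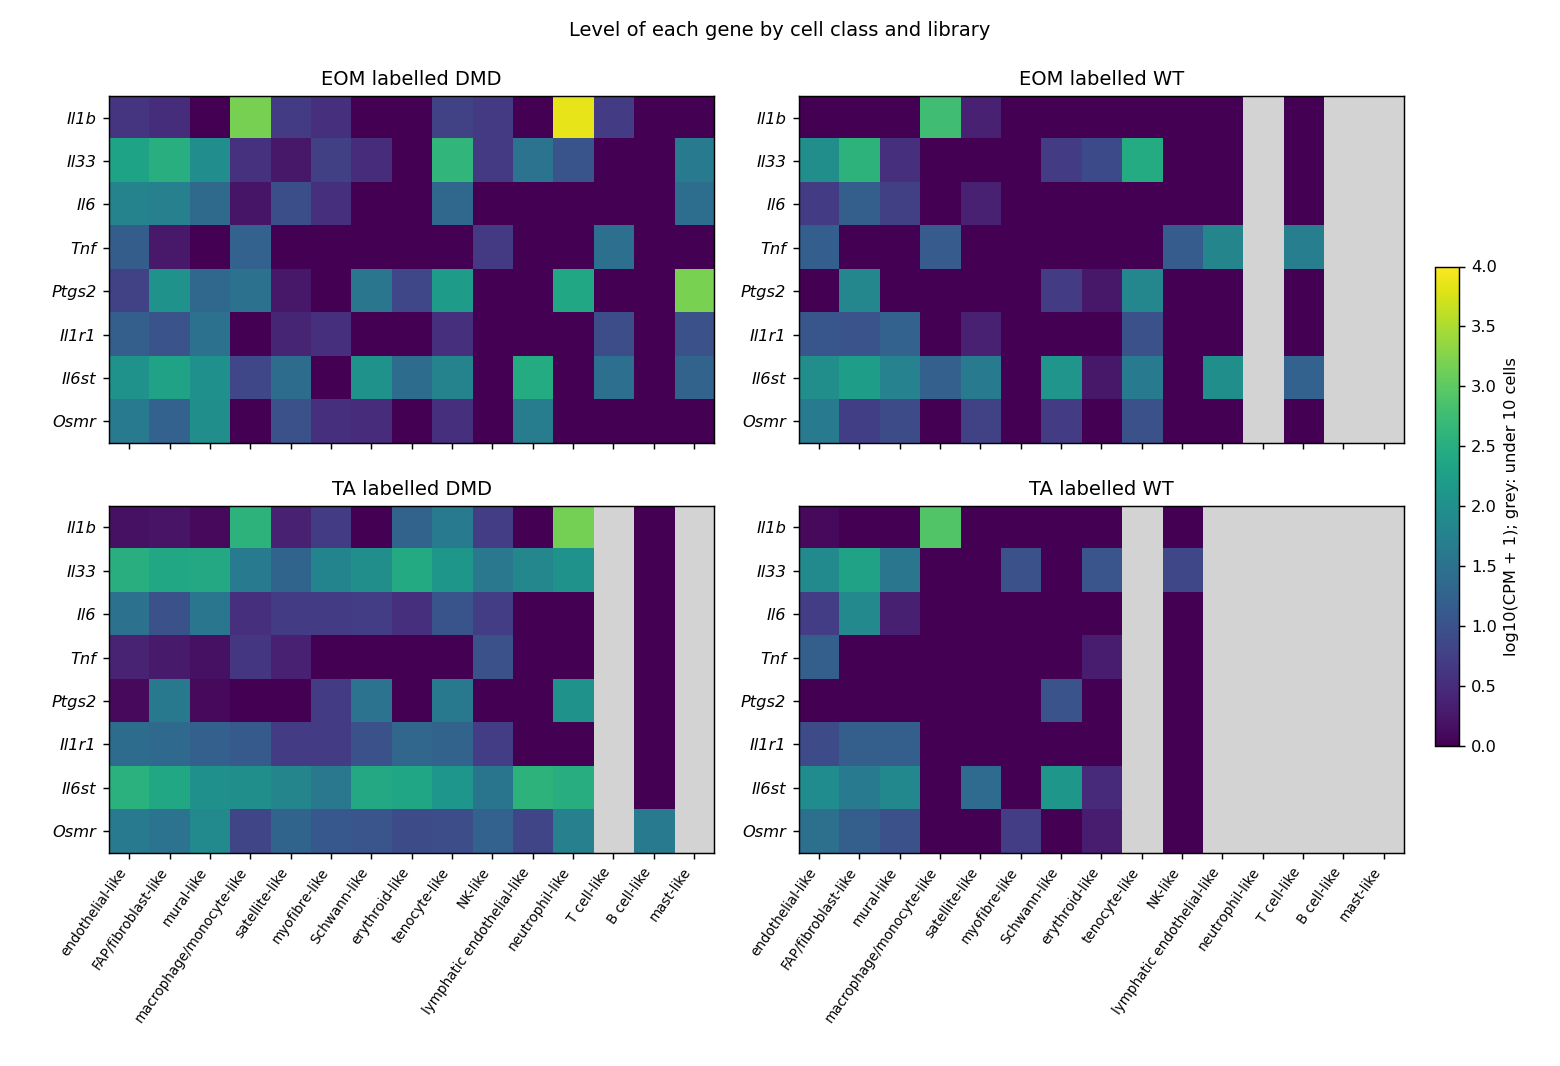
Level of 8 of the genes (rows) in 15 cell classes (columns) of each library, as log10(CPM + 1) of the summed UMIs, with classes under 10 cells in grey. Il1b is bright in macrophage/monocyte-like and neutrophil-like cells, reaching 7202 CPM in the neutrophil-like cells of EOM labelled DMD, while Il33 and Il6st are spread over vessel and connective tissue classes.

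Il1b (ENSRNOG00000004649), the secreted cytokine of activated macrophages and neutrophils, gave 3930 UMIs and came almost wholly from myeloid classes. Macrophage/monocyte-like cells held 74.3% of its UMIs in EOM labelled DMD, 99.5% in EOM labelled WT, 79.4% in TA labelled DMD and 75.7% in TA labelled WT. Neutrophil-like cells held a further 24.9% in EOM labelled DMD, 13.9% in TA labelled DMD and 23.6% in TA labelled WT, and EOM labelled WT had no such cell. Il1b is among the leading genes of the neutrophil-like cluster, so its height there is not a finding.

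Over a whole library Il1b stood at 245 CPM in EOM labelled DMD, 33.9 in EOM labelled WT, 30.8 in TA labelled DMD and 22.0 in TA labelled WT. EOM labelled DMD stood apart, and the other 3 libraries lay close together. Within macrophage/monocyte-like cells the level was 1527 CPM (1464 to 1592) in 141 cells of EOM labelled DMD and 582 CPM (507 to 664) in 41 cells of EOM labelled WT. It was 388 CPM (353 to 424) in 565 cells of TA labelled DMD and 809 CPM (666 to 974) in 18 cells of TA labelled WT. The 2 muscles thus ran opposite ways between labelled DMD and labelled WT, but both labelled WT values come from too few cells for a contrast under the minimum of 50 cells.

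The contrast that could be formed put Il1b 3.94-fold higher (3.56 to 4.36) in EOM labelled DMD than in TA labelled DMD, a log2 ratio of 1.95. The 9 macrophage/monocyte markers moved the same way in this class, summing to 27969 CPM in EOM labelled DMD against 14572 CPM in TA labelled DMD. Markers of other cells ran opposite, with 122 against 861 CPM for the 7 endothelial and 490 against 2144 CPM for the 7 FAP/fibroblast markers, and none of these markers was at 0. Their part in the Il1b difference was not tested. The cluster led by Lyz2, Tyrobp and Fcer1g held 2543 CPM in EOM labelled DMD against 194 CPM in TA labelled DMD, 13.1-fold (10.0 to 17.4). The cluster led by Cd74 with the complement genes C1qa, C1qb and C1qc, markers of resident macrophages, held 937 CPM against 395 CPM, 2.37-fold. Another cluster, led by the class II gene RT1-Da, had 13 cells in EOM labelled DMD, 8 in EOM labelled WT and 260 in TA labelled DMD. Without it, a comparison chosen after seeing the data, Il1b stood at 1682 CPM in EOM labelled DMD and 321 CPM in TA labelled DMD, 5.23-fold. The gap between the muscles was thus past 2-fold with and without that cluster, and widest in the Lyz2-led one.

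Outside myeloid classes Il1b was near 0, with 2.36 CPM in FAP/fibroblast-like cells of EOM labelled DMD and 0.504 CPM in endothelial-like cells of TA labelled DMD. Tenocyte-like cells of TA labelled DMD had 44.9 CPM, but 21 of their 23 UMIs lay in 1 cell. Neutrophil markers summed to 1248 CPM in that class, against 2.63 CPM in tenocyte-like cells of EOM labelled DMD; their part in the value was not tested.

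Il1a (ENSRNOG00000004575), the form that many cells keep inside until they are damaged, had 1 UMI in EOM labelled DMD and 0 UMIs in the other 3 libraries. With 0 UMIs, 3 counts set the limit, at 0.460 CPM in EOM labelled WT, 0.156 CPM in TA labelled DMD and 0.446 CPM in TA labelled WT.

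Tnf, the gene of tumour necrosis factor, gave 176 UMIs. It stood at 4.95 CPM in EOM labelled DMD, 5.06 in EOM labelled WT, 1.25 in TA labelled DMD and 8.77 in TA labelled WT. Endothelial-like cells held 23 of 60, 21 of 33, 12 of 24 and 58 of 59 of these UMIs over the libraries in that order, and macrophage/monocyte-like cells 25, 5, 4 and 0. The endothelial-like level was 14 CPM in EOM labelled DMD, 14.8 in EOM labelled WT, 1.51 in TA labelled DMD and 15.1 in TA labelled WT. TA labelled DMD was the low one of the 4, 9.97-fold lower than TA labelled WT (5.30 to 20.4). This class pair missed the minimum mean of 10 CPM and is not in the counts given below. Within the largest Aqp1-led cluster, of capillary type, Tnf had 2.03 CPM in TA labelled DMD against 21.3 CPM in TA labelled WT, a ratio of 0.0951 (0.0247 to 0.263).

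Il33 (ENSRNOG00000016456), a nuclear cytokine of endothelial and stromal cells that is released on damage, was the most counted of the 10 genes with 8049 UMIs. It stood at 178 CPM in EOM labelled DMD, 120 in EOM labelled WT, 248 in TA labelled DMD and 54.0 in TA labelled WT. The class with the largest share of its UMIs differed by muscle. FAP/fibroblast-like cells held 72.5% of its UMIs in EOM labelled DMD and 77.4% in EOM labelled WT, while endothelial-like cells held 55.2% in TA labelled DMD and 84.3% in TA labelled WT. The numbers of cells differ too, with 688, 231, 1459 and 22 FAP/fibroblast-like cells in the same order, and class size enters these shares. By CPM, FAP/fibroblast-like cells lay above endothelial-like cells in both libraries of EOM, and below them in TA labelled DMD, at 252 against 330. In TA labelled WT they lay above, but on 13 Il33 UMIs of 65736 in the class, against 306 of 3851873 in endothelial-like cells.

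In endothelial-like cells Il33 stood at 208 CPM (186 to 231) in EOM labelled DMD and 93.0 CPM (77.8 to 110) in EOM labelled WT. In TA it was 330 CPM (318 to 343) labelled DMD and 79.4 CPM (70.8 to 88.9) labelled WT. Both muscles were higher in the library labelled DMD, 2.23-fold in EOM (1.82 to 2.75) and 4.16-fold in TA (3.69 to 4.69). FAP/fibroblast markers moved the same way in these cells of TA. They summed to 1143 CPM with all 7 detected in TA labelled DMD, against 96.6 CPM with 1 of the 7 at 0 in TA labelled WT, and to 307 CPM in EOM labelled DMD against 256 CPM in EOM labelled WT. The 7 endothelial markers summed to 5091 CPM in TA labelled DMD against 8550 CPM in TA labelled WT; the part of these shifts in the endothelial-like levels was not tested. Much of this lay in 1 cluster led by Plvap, with the activation genes Selp, Sele and Vcam1 and with Vwf, a gene of veins. Its cells numbered 25 in EOM labelled DMD, 6 in EOM labelled WT, 814 in TA labelled DMD and 12 in TA labelled WT.

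The Plvap-led cells carried 1313 CPM of Il33 in EOM labelled DMD, 552 CPM in TA labelled DMD and 1023 CPM in TA labelled WT. The level inside the cluster was thus lower in TA labelled DMD than in TA labelled WT, while the number of such cells was far larger. Without this cluster, a comparison chosen after seeing the data, endothelial-like Il33 stood at 81.9 CPM in EOM labelled DMD against 74.0 CPM in EOM labelled WT, 1.11-fold. In TA it stood at 165 CPM labelled DMD against 66.6 CPM labelled WT, 2.48-fold (2.15 to 2.87). The EOM difference therefore ended without the Plvap-led cells, and the TA difference remained past 2-fold.

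Other endothelial-like clusters differed in Il33 as well. The Cxcl12-led cluster, whose leading genes Dll4 and Sox17 mark arteries, held 161 CPM in EOM labelled DMD, 184 in EOM labelled WT, 299 in TA labelled DMD and 280 in TA labelled WT. The largest Aqp1-led cluster held 46.5, 48.3, 52.7 and 16 CPM over the libraries in that order. TA labelled WT was the low one there, with TA labelled DMD 3.30-fold higher (2.18 to 5.13).

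**Figure D2:**
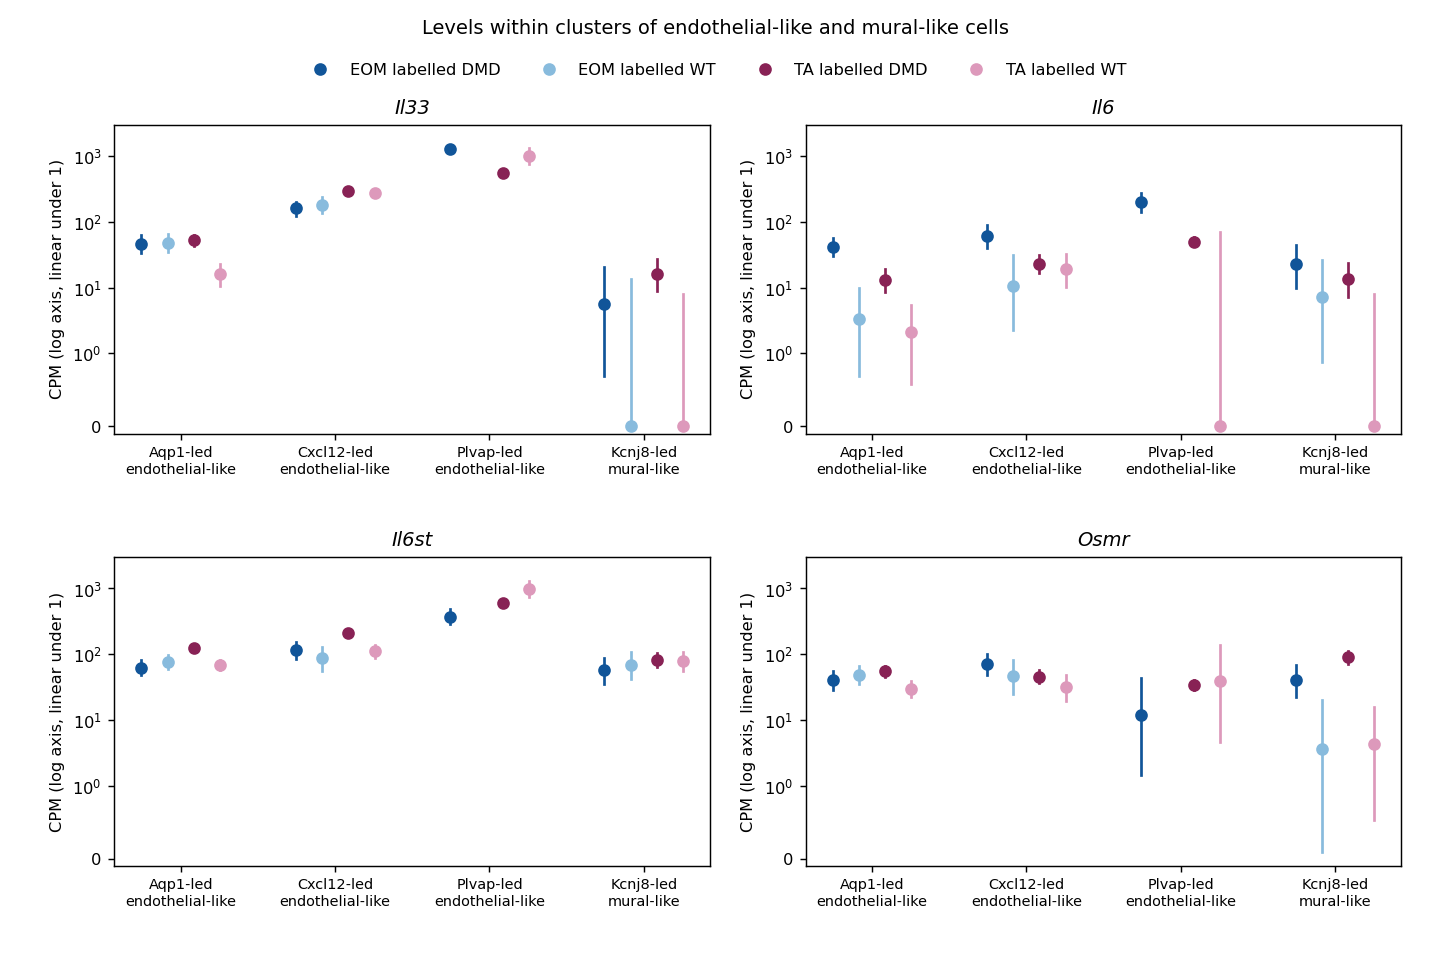
CPM of Il33, Il6, Il6st and Osmr in 3 endothelial-like clusters and 1 mural-like cluster of each library, with exact 95% counting intervals as bars and a log axis that is linear under 1. Il33 and Il6st are highest in the Plvap-led cells, and Osmr in the Kcnj8-led mural-like cells is higher in both libraries labelled DMD; Plvap-led cells of EOM labelled WT numbered 6 and are not drawn.

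In FAP/fibroblast-like cells Il33 differed little between the libraries of EOM, with 335 CPM (319 to 352) labelled DMD and 384 CPM (354 to 416) labelled WT, a ratio of 0.873 (0.794 to 0.961). TA labelled DMD had 252 CPM. Highest among these cells was a small cluster led by Apod, Dcn, Myoc and Gpc3, with 2076 CPM in 10 cells of EOM labelled DMD, 1969 CPM in 12 of EOM labelled WT, 1017 CPM in 84 of TA labelled DMD and 231 CPM in 15 of TA labelled WT. Tenocyte-like cells, the cells of tendon, held 431 CPM in EOM labelled DMD, 289 CPM in 17 cells of EOM labelled WT and 129 CPM in TA labelled DMD. Between the libraries labelled DMD, the tenocyte-like level of EOM was 3.34-fold that of TA (2.50 to 4.52). FAP/fibroblast markers moved the same way in this class, summing to 48346 CPM in EOM labelled DMD against 20712 CPM in TA labelled DMD. Markers of other cells ran opposite, with 15.8 against 820 CPM for endothelial, 49.9 against 1101 CPM for satellite and 2.63 against 1248 CPM for neutrophil markers. Their part in the tenocyte-like levels was not tested.

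In mural-like cells, the pericytes and smooth muscle cells of vessel walls, Il33 stood at 90.2 CPM in EOM labelled DMD and 2.41 CPM in EOM labelled WT. In TA it was 263 CPM labelled DMD and 36.3 CPM labelled WT, 7.24-fold (5.01 to 10.9). Endothelial markers moved the same way in these cells. All 7 were detected and summed to 760 CPM in EOM labelled DMD, against 19.3 CPM with 5 of the 7 at 0 in EOM labelled WT, and to 1049 CPM in TA labelled DMD against 177 CPM in TA labelled WT. Their part in the mural-like level was not tested.

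Erythroid-like cells, which should lack Il33, had 276 CPM of it in TA labelled DMD, against 10.4 CPM in TA labelled WT. With every cell thinned to 1000 UMIs, 14.5% of 131 erythroid-like cells had an Il33 UMI, close to 13.7% of 915 mural-like and 13.5% of 667 FAP/fibroblast-like cells and under 20.5% of endothelial-like cells. Thinning left out 138, 648, 792 and 903 shallower cells of these classes. Unthinned, the shares were 14.9%, 19.6%, 18.4% and 28.8%, at median depths of 976, 1259, 923 and 1781 UMIs. These erythroid-like cells carried markers of other classes, as given above, so their level is no clean measure of free RNA. Satellite-like cells of the same library had 18.3 CPM, far below it. The part of RNA from other cells in the mural-like and FAP/fibroblast-like levels of Il33 was not tested.

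Highest among clusters of at least 50 cells in TA labelled DMD were the Plvap-led endothelial-like cells at 552 CPM, the Apod- and Gpc3-led cells at 1017 CPM and 146 mural-like cells led by the chemokine gene Ccl11 at 756 CPM. The Ccl11-led cells had 376 CPM in 20 cells of EOM labelled DMD and 330 CPM in 14 cells of TA labelled WT. The Kcnj8-led cluster of pericyte type had 5.75 CPM in EOM labelled DMD, 0 UMIs in EOM labelled WT, 16.1 CPM in TA labelled DMD and 0 UMIs in TA labelled WT.

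Il6 (ENSRNOG00000010278), the acute cytokine of damaged and exercised muscle, gave 878 UMIs and came from vessel and connective tissue classes, while macrophage/monocyte-like cells held 1 UMI in EOM labelled DMD and 3 UMIs in TA labelled DMD. Over a library it stood at 32.4 CPM in EOM labelled DMD, 5.06 in EOM labelled WT, 22.3 in TA labelled DMD and 3.42 in TA labelled WT. Both libraries labelled DMD lay above both labelled WT. A few cells carried much of it: the 10 cells with most Il6 held 46.6%, 75.8%, 25.2% and 100% of the UMIs in the same order, and the highest single cell held 32 UMIs.

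The largest share of Il6 UMIs lay in the FAP/fibroblast-like class in EOM, with 63.9% labelled DMD and 72.7% labelled WT. In TA it lay in the endothelial-like class, with 56.9% labelled DMD and 73.9% labelled WT. Mural-like cells added 32.4% in TA labelled DMD. Class size and depth enter these shares. FAP/fibroblast-like cells were 30.4% of cells in EOM labelled DMD and 18.5% in EOM labelled WT. Endothelial-like cells were 35.7% in TA labelled DMD and 74.7% in TA labelled WT, the last close to their Il6 share. By CPM, FAP/fibroblast-like cells of EOM labelled DMD, at 53.9, lay below the endothelial-like level given next. In endothelial-like cells the level was 61.3 CPM (50 to 74.5) in EOM labelled DMD and 4.23 CPM (1.55 to 9.20) in EOM labelled WT. In TA it was 30.7 CPM (27.0 to 34.8) labelled DMD and 4.41 CPM (2.57 to 7.07) labelled WT. The intervals of DMD and WT did not overlap in either muscle.

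Mural-like Il6 stood at 23.2 CPM in EOM labelled DMD, 4.82 in EOM labelled WT, 36.8 in TA labelled DMD and 1.25 in TA labelled WT, where the last is 1 UMI. FAP/fibroblast-like cells of EOM had 53.9 CPM (47.4 to 61.0) labelled DMD and 15.2 CPM (9.77 to 22.7) labelled WT. Those of TA labelled DMD had 8.96 CPM (5.95 to 13.0), below both libraries of EOM, and the 5 UMIs of the 22 cells in TA labelled WT were too few to use. Erythroid-like cells of TA labelled DMD had 2.51 CPM of Il6, which is 1 UMI.

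Within clusters Il6 was higher in the libraries labelled DMD as well. The cells of the largest Aqp1-led cluster had 42.3 CPM in EOM labelled DMD, 3.37 in EOM labelled WT, 13.2 in TA labelled DMD and 2.13 in TA labelled WT. In the Cxcl12-led cluster the 4 levels were 62.1, 10.8, 23.1 and 19.3 CPM, so TA showed little difference in that cluster. Plvap-led cells had 202 CPM in EOM labelled DMD and 50.5 CPM in TA labelled DMD, where they held 171 of the 244 endothelial-like UMIs.

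Without the Plvap-led cells endothelial-like Il6 stood at 45.3 CPM in EOM labelled DMD against 4.31 CPM in EOM labelled WT, and at 16 CPM in TA labelled DMD against 4.47 CPM in TA labelled WT. EOM stayed past 2-fold, while TA, at a log2 ratio of 0.85, was no longer called. In EOM the larger Ces1d-led FAP/fibroblast-like cluster had 57.1 CPM labelled DMD and 16.7 CPM labelled WT. The sum of 14 immediate-early and heat-shock genes, which digestion can induce, was also higher in the libraries labelled DMD. It was 25512 CPM in EOM labelled DMD against 18068 in EOM labelled WT and 22429 in TA labelled DMD against 18067 in TA labelled WT for endothelial-like cells. For mural-like cells it was 41686 against 26677 and 40820 against 29630 CPM, and for FAP/fibroblast-like cells of EOM 34422 against 27128 CPM; its part in the Il6 levels was not tested. Single genes of the list went both ways. Endothelial-like Fos stood at 4395 CPM in EOM labelled DMD against 2172 in EOM labelled WT and at 4718 against 2405 CPM in TA, but Hspa1b at 477 against 1722 CPM in EOM and 297 against 1000 CPM in TA.

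Lif (ENSRNOG00000007002), the gene of leukaemia inhibitory factor, had 5 UMIs in EOM labelled DMD, 1 in EOM labelled WT, 2 in TA labelled DMD and 0 in TA labelled WT. All 5 UMIs of EOM labelled DMD lay in 3 of its 15 mast-like cells, at 44.7 CPM (14.5 to 104), and no other class there had a Lif UMI. With 0 UMIs, 3 counts set the limit at 1.82 CPM in its endothelial-like and 0.644 CPM in its FAP/fibroblast-like cells. Mast-like cells were found in that library alone, so the level could not be compared with another. The other 3 UMIs were 1 each in a satellite-like cell of EOM labelled WT and in a FAP/fibroblast-like and a lymphatic endothelial-like cell of TA labelled DMD.

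**Figure D3:**
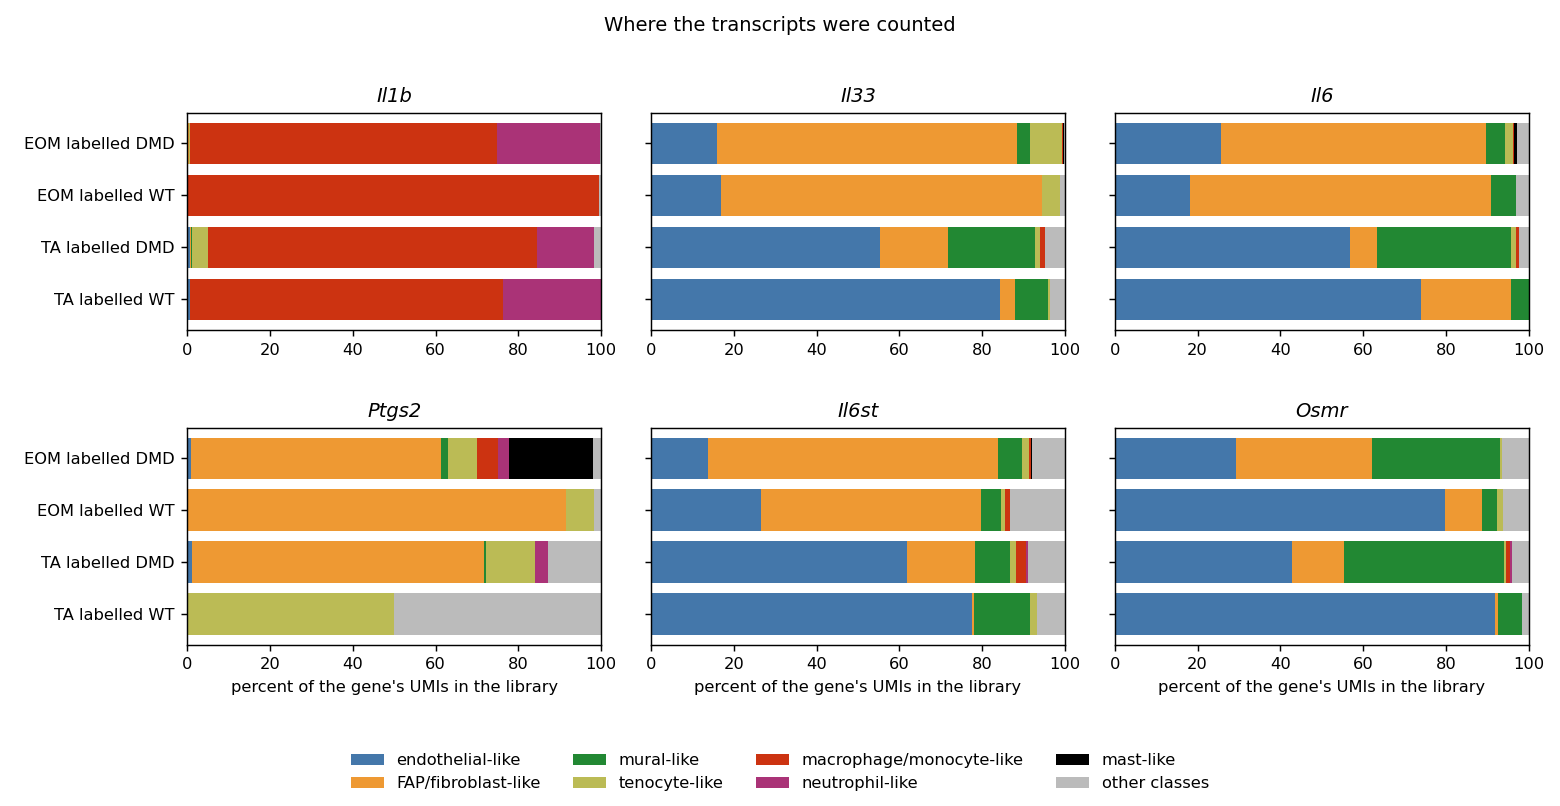
Share of the UMIs of each gene that each cell class held, in percent of the UMIs of that gene in the library, with 1 bar per library. Il33, Il6 and Il6st are mostly endothelial-like in TA and mostly FAP/fibroblast-like in EOM, while Il1b is myeloid in all 4 libraries; the Ptgs2 bar of TA labelled WT rests on 2 UMIs.

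Ptgs2 (ENSRNOG00000002525) stood at 72.2 CPM in EOM labelled DMD, 18.2 in EOM labelled WT, 9.38 in TA labelled DMD and 0.297 in TA labelled WT, the last being 2 UMIs. FAP/fibroblast-like cells were the main source, with 60.3% of UMIs in EOM labelled DMD, 91.6% in EOM labelled WT and 70.6% in TA labelled DMD. Their level reached 113 CPM (104 to 123) in EOM labelled DMD, 69.3 CPM (56.9 to 83.5) in EOM labelled WT and, lowest, 40.6 CPM (33.9 to 48.4) in TA labelled DMD. It was 1.64-fold higher in EOM labelled DMD than in EOM labelled WT (1.33 to 2.03), short of 2-fold, and 2.79-fold higher than in TA labelled DMD (2.29 to 3.41). Tenocyte-like cells had 158 CPM in EOM labelled DMD, 70.0 CPM in EOM labelled WT and 41.0 CPM in TA labelled DMD. EOM labelled DMD was 3.84-fold over TA labelled DMD there (2.30 to 6.65). The tenocyte-like marker sums given with Il33 are those of the same cells, and their part was not tested.

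Another source was found in EOM labelled DMD. Its 15 mast-like cells, all from that library, held 176 Ptgs2 UMIs, 20.1% of the total there, at 1572 CPM. Ptgs2 is a leading gene of that cluster, so the level is a description. Neutrophil-like cells had 244 CPM in EOM labelled DMD and 108 CPM in TA labelled DMD, where all 6 UMIs lay in 1 cell. Macrophage/monocyte-like cells had 30.5 CPM in EOM labelled DMD, against 0 UMIs in EOM labelled WT and in TA labelled DMD. Of their 44 UMIs, 39 lay in the Lyz2-led cluster that also held the most Il1b. In mural-like cells of EOM labelled DMD 15 of 16 Ptgs2 UMIs lay in 1 cell.

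In EOM labelled DMD, Ptgs2 was found in a larger share of the fibroblasts with Il6 than of those without. Of 46 FAP/fibroblast-like cells with an Il6 UMI 17 also had Ptgs2, 37.0%, against 11.1% of the 642 cells without Il6. The cells with Il6 were deeper, with a median of 9049 UMIs against 6924, and depth alone raises such a share. In TA labelled DMD the shares were 13.6% of 22 cells and 4.31% of 1437 cells, at medians of 1528 and 916 UMIs. No endothelial-like cell with Il6 had Ptgs2, among 23 such cells in EOM labelled DMD and 136 in TA labelled DMD. Ptgs2 was rare in the whole class. It was in 0.357% of 560 endothelial-like cells without Il6 in EOM labelled DMD and 0.0738% of 2709 in TA labelled DMD. So few cells with Il6 could not show a difference.

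Il1r1 (ENSRNOG00000014504), the signalling receptor chain for both forms of interleukin 1, gave 548 UMIs, mostly in endothelial-like, mural-like and FAP/fibroblast-like cells. In mural-like cells it stood at 29.6 CPM in EOM labelled DMD, 16.9 in EOM labelled WT, 15.6 in TA labelled DMD and 15 in TA labelled WT. The endothelial-like levels over the same 4 libraries were 15.2, 10.6, 24.5 and 7.53 CPM. FAP/fibroblast-like cells had 9.45 CPM in EOM labelled DMD, 9.53 in EOM labelled WT and 22.7 in TA labelled DMD, and macrophage/monocyte-like cells of EOM had 0 UMIs in both libraries. Erythroid-like cells of TA labelled DMD held 8 UMIs, an interval of 8.66 to 39.5 CPM that holds the endothelial-like and FAP/fibroblast-like levels of that library. No Il1r1 difference passed 2-fold in a disease contrast with 10 CPM added. In endothelial-like cells of TA the log2 ratio was 0.98, and with nothing added the difference was 3.26-fold (2.20 to 5). Without the Plvap-led cluster it was 1.54-fold (0.948 to 2.56).

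The other chain of that receptor, Il1rap, was sparse, at 1.21, 2.11, 3.27 and 3.12 CPM of endothelial-like cells in EOM labelled DMD, EOM labelled WT, TA labelled DMD and TA labelled WT. At most 1 cell of a class in a library had both chains among endothelial-like, mural-like and FAP/fibroblast-like cells. The decoy receptor Il1r2, which binds interleukin 1 without signalling, was highest where Il1b was, with 1464 CPM in neutrophil-like cells of EOM labelled DMD and 807 CPM in those of TA labelled DMD. Il1rn, the secreted antagonist, stood at 703 and 161 CPM in the same cells, and in macrophage/monocyte-like cells at 94.2 CPM in EOM labelled DMD, 108 in EOM labelled WT and 74.3 in TA labelled DMD. Il1rl1, the receptor chain for interleukin 33, had 0 UMIs in endothelial-like cells of 3 libraries and 1 UMI in those of TA labelled DMD. It reached 13.2 CPM at most in the macrophage/monocyte-like cells, in EOM labelled WT, and 6.09 CPM in mural-like cells of TA labelled DMD. The 15 mast-like cells were too few for a level of Il1rl1 to be taken.

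Il6st (ENSRNOG00000013963), the gene of gp130, gave 6826 UMIs and was the most widespread of the receptor genes. It stood at 112 CPM in EOM labelled DMD, 78.2 in EOM labelled WT, 236 in TA labelled DMD and 65.3 in TA labelled WT, with TA labelled DMD highest. In endothelial-like cells the level was 113 CPM (97.3 to 130) in EOM labelled DMD and 95.1 CPM (79.7 to 113) in EOM labelled WT. In TA it reached 353 CPM (340 to 366) labelled DMD, against 88.3 CPM (79.1 to 98.2) labelled WT. The ratio of DMD over WT was 1.19 in EOM (0.947 to 1.49), where the intervals overlap, and 3.99 in TA (3.57 to 4.48), and the marker sums given with Il33 are those of the same cells. EOM labelled DMD held 0.320 of the level of TA labelled DMD (0.275 to 0.372).

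As with Il33, the Plvap-led cells were highest in Il6st, with 374 CPM in EOM labelled DMD, 607 CPM in TA labelled DMD and 984 CPM in TA labelled WT. Without them the TA levels were 164 CPM labelled DMD and 76.1 CPM labelled WT, 2.15-fold (1.88 to 2.47), and the EOM levels 83.2 and 80.4 CPM. The Cxcl12-led cells of TA had 210 CPM labelled DMD against 111 CPM labelled WT, and those of the largest Aqp1-led cluster 124 against 68.2 CPM. In EOM those clusters had 115 CPM labelled DMD against 86.7 CPM labelled WT and 62.4 against 76.4 CPM. The TA differences in these clusters were under 2-fold, with ratios of 1.89 (1.47 to 2.46) and 1.81 (1.46 to 2.26). In other endothelial-like clusters of TA they were past it. The cells led by Aqp1, Kdr and Cyyr1 had 155 CPM labelled DMD against 53.2 CPM labelled WT, 2.92-fold (1.68 to 5.42), and the Esm1-led cells 173 against 73.3 CPM, 2.37-fold (1.58 to 3.50).

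FAP/fibroblast-like cells had 204 CPM of Il6st in EOM labelled DMD, 173 in EOM labelled WT and 237 in TA labelled DMD, and the EOM ratio was 1.18 (1.03 to 1.35). Mural-like cells had 100 CPM in EOM labelled DMD, 57.8 in EOM labelled WT, 101 in TA labelled DMD and 73.9 in TA labelled WT, ratios of 1.74 (1.09 to 2.87) and 1.37 (1.04 to 1.83). Over the same 4 libraries Schwann-like levels were 107, 120, 263 and 131 CPM, and the level of EOM labelled DMD was 0.407 of that of TA labelled DMD. Erythroid-like cells had 24.7, 0.784, 228 and 2.08 CPM, the first from 10 cells. The 228 CPM of TA labelled DMD lay above its satellite-like, myofibre-like and macrophage/monocyte-like levels of 65.3, 38.9 and 95.7 CPM as well as its mural-like level, so it is no floor for those classes. Endothelial-like cells of TA labelled DMD lay above the erythroid-like cells also by thinned shares, with 23.2% against 16% of erythroid-like cells. Unthinned these shares were 35.7% and 17.5%, at median depths of 1781 and 976 UMIs.

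Osmr (ENSRNOG00000033192), the specific chain of the oncostatin M receptor, gave 1236 UMIs. Mural-like cells stood at 97.9 CPM (77.1 to 123) in EOM labelled DMD and 7.23 CPM (1.49 to 21.1) in EOM labelled WT. In TA they stood at 80.8 CPM (72.0 to 90.4) labelled DMD and 8.77 CPM (3.53 to 18.1) labelled WT. Both libraries labelled DMD were high, both labelled WT were low, and the intervals did not overlap. The labelled WT values rest on 3 and 7 UMIs.

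Thinned to 1000 UMIs per cell, 7.84% of 153 mural-like cells had an Osmr UMI in EOM labelled DMD, 1.11% of 90 in EOM labelled WT, 5.68% of 915 in TA labelled DMD and 1.18% of 169 in TA labelled WT. Thinning left out 4, 0, 648 and 11 shallower cells, and the unthinned shares were 22.3%, 3.33%, 12.6% and 3.89% at median depths of 3639, 3916, 1259 and 4036 UMIs. None of 131 thinned erythroid-like cells of TA labelled DMD had an Osmr UMI, and their level was 7.52 CPM over 3 UMIs. Mural-like Osmr thus stood well above the erythroid-like level, while mural-like Il33 did not.

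The Osmr difference was also seen inside the Kcnj8-led cluster of pericyte type. It held 40.3 CPM (14 UMIs in 102 cells) in EOM labelled DMD, 3.65 CPM (1 UMI in 71 cells) in EOM labelled WT, 89.5 CPM (78 UMIs in 254 cells) in TA labelled DMD and 4.34 CPM (2 UMIs in 121 cells) in TA labelled WT. Il6st in those cells was level, with 57.5, 69.4, 81.5 and 78.1 CPM in the same order. The smooth muscle type cluster led by Acta2 and Myh11 had 12 UMIs of Osmr in 22 cells of EOM labelled DMD and 44 UMIs in 432 cells of TA labelled DMD, against 0 UMIs in 11 and 31 cells of EOM and TA labelled WT. The Ccl11-led cells had 290 CPM in EOM labelled DMD, 127 CPM in TA labelled DMD and 36.7 CPM in TA labelled WT, where 3 UMIs were counted. Without the Ccl11-led and Rasl11a-led clusters, a comparison chosen after seeing the data, mural-like Osmr stood at 50.6 CPM in EOM labelled DMD against 2.74 in EOM labelled WT and at 69.6 CPM in TA labelled DMD against 2.84 in TA labelled WT.

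In endothelial-like cells Osmr stood at 43.7 CPM in EOM labelled DMD, 44.4 in EOM labelled WT, 42.5 in TA labelled DMD and 28.8 in TA labelled WT. None of these differences passed 2-fold, but TA labelled WT was the low one. TA labelled DMD was 1.48-fold over it (1.19 to 1.85) and EOM labelled WT 1.54-fold (1.11 to 2.12). In the largest Aqp1-led cluster TA labelled DMD was 1.85-fold over TA labelled WT (1.33 to 2.60), and in the cells led by Aqp1, Kdr and Cyyr1 it had 44.6 CPM against 7.09 CPM, which is 2 UMIs. FAP/fibroblast-like cells had 17.4 CPM in EOM labelled DMD, 4.45 in EOM labelled WT and 32.0 in TA labelled DMD; the EOM pair differed 3.91-fold (1.81 to 10.0) with nothing added, and with 10 CPM added its log2 ratio of 0.92 was short of 2-fold. Macrophage/monocyte-like cells had 0 UMIs in both libraries of EOM and 5.78 CPM in TA labelled DMD.

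Its ligand gene Osm lay in other classes. Neutrophil-like cells had 420 CPM of Osm in EOM labelled DMD and 287 CPM in TA labelled DMD, and macrophage/monocyte-like cells 37.4 CPM in EOM labelled DMD, 10.6 in EOM labelled WT and 32.2 in TA labelled DMD. Endothelial-like, mural-like and FAP/fibroblast-like cells had at most 1.04 CPM of Osm. The 2 chains Osmr and Il6st were found together in 10.2% of mural-like cells in EOM labelled DMD (exact binomial interval 5.94 to 16), against 1.11% in EOM labelled WT (0.0281 to 6.04). The shares in TA were 4.93% labelled DMD (3.91 to 6.12) and 1.67% labelled WT (0.345 to 4.79). The share among erythroid-like cells of TA labelled DMD was 0.743%. FAP/fibroblast-like cells of EOM had both chains in 7.70% labelled DMD (5.82 to 9.96) and 1.30% labelled WT (0.269 to 3.75), at median depths of 7030 and 6891 UMIs.

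Interleukin 6 showed another split. The specific chain Il6r was highest in macrophage/monocyte-like cells, at 111 CPM in EOM labelled DMD, 106 in EOM labelled WT and 73.4 in TA labelled DMD, and low in endothelial-like cells, at 3.04, 3.52, 6.80 and 0.779 CPM over the 4 libraries. The macrophage/monocyte-like cells of EOM had only 6.23 CPM of Il6st labelled DMD and 15.9 CPM labelled WT. Cells with a UMI of both chains made up 5.23% of FAP/fibroblast-like cells in EOM labelled DMD and 4.33% in EOM labelled WT, and 4.26% of macrophage/monocyte-like cells in EOM labelled DMD. Among mural-like cells, 9 of 180 had both in TA labelled WT (exact binomial interval 2.31% to 9.28%). The mural-like share was 3.82% in EOM labelled DMD, 1.11% in EOM labelled WT and 1.02% in TA labelled DMD. Erythroid-like cells of TA labelled DMD had both in 0.372%. Lifr, the chain for leukaemia inhibitory factor, stood at 92.9 CPM in endothelial-like cells of EOM labelled DMD, 78.2 in EOM labelled WT, 66.5 in TA labelled DMD and 85.9 in TA labelled WT. Schwann-like cells held Cntf, another ligand of the gp130 family, at 327, 330, 125 and 75.1 CPM in the same order. Cntfr, its specific chain, stood at 124 CPM in FAP/fibroblast-like cells of EOM labelled DMD, 165 in EOM labelled WT and 43.2 in TA labelled DMD.

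Counted over genes and classes, EOM labelled DMD over EOM labelled WT gave 18 pairs of a member and a class that passed the filters of at least 50 cells, 10 UMIs and a mean of 10 CPM. Of these 18 pairs 7 were past 2-fold higher and 0 lower, beside 1.74% higher and 1.39% lower of all 30756 gene and class pairs. The 7 were Il33 and Il6 in endothelial-like cells, Il6 in FAP/fibroblast-like cells, and Il33, Il6, Osmr and Ptgs2 in mural-like cells. The mural-like Ptgs2 call rests on 16 UMIs against 0, nearly all of them in 1 cell. By class, 2 of 6 members were higher in endothelial-like cells beside 1.17% of all genes, 1 of 5 in FAP/fibroblast-like beside 0.531%, 4 of 6 in mural-like beside 4.05%, and 0 of 1 in satellite-like beside 1.16%. The count of 7 fell to 3 with 50 CPM added, to 3 of 12 pairs with a stricter cell filter, and to 3 of 13 with 1 lower when cells were thinned to 1000 UMIs. It was 4 without the Rasl11a-led and Ccl11-led clusters, chosen after seeing the data. Mural-like Il6 of EOM was then no longer called, at 15.6 CPM labelled DMD against 5.49 CPM labelled WT, a log2 ratio of 0.72. Mural-like Il33 then had 5 UMIs in EOM labelled DMD, at 9.74 CPM. In TA labelled DMD the mural-like levels without these clusters were 31.4 CPM of Il33 and 11.4 CPM of Il6, against 0 UMIs in TA labelled WT.

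TA labelled DMD over TA labelled WT gave 15 pairs, of which 11 were higher and 0 lower. Of all 31930 gene and class pairs in this contrast, 6388 were higher and 1247, or 3.91%, were lower. Endothelial-like cells had 3 of 5 higher (Il33, Il6st and Il6) beside 3.97% of genes, and mural-like cells 3 of 5 (Il33, Il6 and Osmr) beside 3.69%. The other 5 were 1 of 1 in satellite-like cells beside 6.17%, 2 of 2 in myofibre-like beside 29.3% and 2 of 2 in erythroid-like beside 90.6%. All 5 were Il33 or Il6st, and the erythroid-like count is near the share of all genes. The satellite-like and myofibre-like pairs rest on 8, 2 and 0 UMIs in TA labelled WT. Endothelial markers summed to 474 CPM labelled DMD against 45.1 CPM labelled WT in the satellite-like cells and to 540 against 156 CPM in the myofibre-like, and their part was not tested. With 50 CPM added 6 of the 15 pairs were higher. The disease contrasts of the 2 muscles share no library. Members of a pair that failed the filters are not counted, so these are not shares of all 10 genes.

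**Figure D4:**
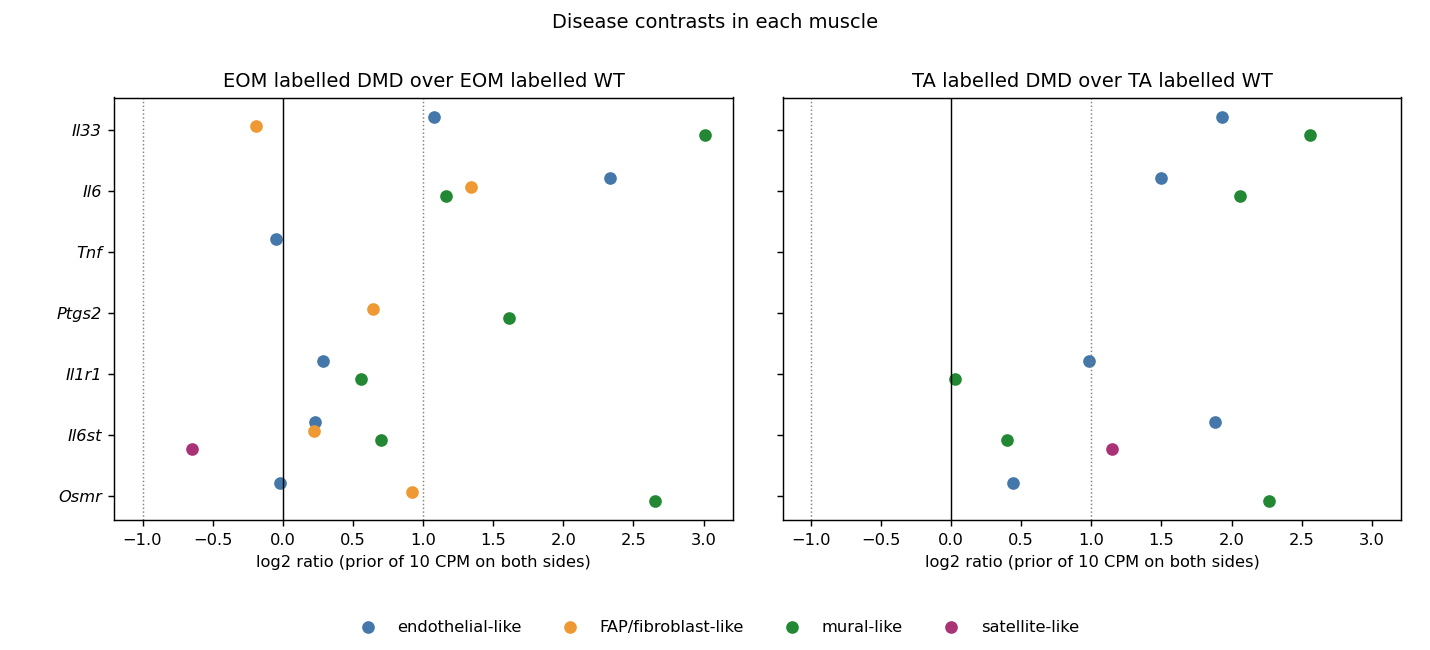
Log2 ratio of labelled DMD over labelled WT in EOM (left) and TA (right) for the genes that passed the filters in endothelial-like, FAP/fibroblast-like, mural-like and satellite-like cells, with 10 CPM added on both sides; each point compares 2 libraries and carries no replicate error, and dotted lines mark 2-fold. Il33, Il6 and Osmr in mural-like cells and Il6 and Il33 in endothelial-like cells lie right of 2-fold in both muscles. Il6st in endothelial-like cells does so in TA only, at 1.88 against 0.23 in EOM.

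Between muscles, EOM labelled DMD over TA labelled DMD gave 35 pairs with 8 higher and 11 lower, beside 3.18% higher and 6.22% lower of all 58163 pairs. The 8 were Il6 and Ptgs2 in FAP/fibroblast-like cells, Ptgs2 in mural-like cells, Il1b, Ptgs2 and Tnf in macrophage/monocyte-like cells, and Il33 and Ptgs2 in tenocyte-like cells. Of the 11 lower pairs 9 were Il33 or Il6st and the other 2 were Il1b and Il1r1 in tenocyte-like cells. Most of that Il1b in TA labelled DMD lay in 1 cell, as did most of the mural-like Ptgs2 of EOM labelled DMD. Some of the 9 lay in classes where endothelial markers were also lower in EOM labelled DMD than in TA labelled DMD. These summed to 44.5 against 858 CPM in Schwann-like, 16.1 against 474 CPM in satellite-like and 16.8 against 540 CPM in myofibre-like cells. Their part was not tested. Macrophage/monocyte-like cells gave 3 of 5 higher beside 2.24% of genes. The 2 lower there were Il33, with 2.77 CPM in EOM labelled DMD against 42.1 CPM in TA labelled DMD, and Il6st, with 6.23 against 95.7 CPM. The endothelial and FAP/fibroblast markers given with Il1b were lower in the same cells, and their part was not tested. With 50 CPM added 3 pairs were higher and 5 lower, thinning gave 4 higher, and the stricter cell filter gave 6 lower. EOM labelled WT over TA labelled WT gave 8 pairs with 0 higher and 1 lower, beside 1.47% and 3.42% of all 24155 pairs. The 1 was Il33 in mural-like cells, with 2.41 CPM in EOM labelled WT against 36.3 CPM in TA labelled WT. That count was 0 with 50 CPM added, with the stricter cell filter and when thinned, and 3 with each library clustered alone. These contrasts use the same 4 libraries as the disease contrasts.

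Of the pathway genes around the members, the JAK-STAT3 list of 14 genes had 3 of 13 tested past 2-fold higher in endothelial-like cells of EOM labelled DMD over EOM labelled WT (median log2 ratio 0.36, beside -0.08 over all genes) and 4 of 11 in mural-like cells (0.59 beside -0.10). In TA it had 1 of 13 in endothelial-like cells (0.29 beside -0.13) and 4 of 13 in mural-like cells (0.44 beside -0.13). None of the 4 was lower, and FAP/fibroblast-like cells of EOM had 0 of 11 in either direction. Over all genes tested, 1.17% of endothelial-like and 4.05% of mural-like were higher in EOM, and 3.97% and 3.69% in TA. Socs3, the feedback inhibitor that STAT3 induces, was higher in all 4 of those comparisons, and was chosen after its values were seen. Endothelial-like Socs3 stood at 75.9 CPM in EOM labelled DMD, 24.0 in EOM labelled WT, 72.5 in TA labelled DMD and 15.8 in TA labelled WT. Mural-like Socs3 stood at 50.2, 2.41, 64.6 and 12.5 CPM in the same order.

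Cebpd, a transcription factor of the acute phase, was named by the rule on the largest ratios. In endothelial-like cells it stood at 724 CPM in EOM labelled DMD against 302 CPM in EOM labelled WT, 2.40-fold. In mural-like cells it stood at 1326 CPM in TA labelled DMD against 474 CPM in TA labelled WT, 2.80-fold. Cebpb, a related factor, stood at 757 CPM against 219 CPM in mural-like cells of EOM labelled DMD and EOM labelled WT, 3.45-fold. These genes can also be induced by stress. The sum of immediate-early and heat-shock genes given above moved the same way, while endothelial-like Hspa1b of that list ran opposite in both muscles. The part of stress in the levels of Socs3, Cebpd and Cebpb was not tested.

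The TNF and NF-kB list of 21 genes had 0 of 18 tested in endothelial-like and 2 of 17 in mural-like cells past 2-fold higher in EOM labelled DMD over EOM labelled WT (median log2 ratios -0.04 and 0.14, beside -0.08 and -0.10 over all genes). In TA (0.02 and 0.20, beside -0.13 in both classes) it had 1 of 18, Zc3h12a, an RNase that degrades cytokine transcripts, and 4 of 16, which were Myd88, Nfkbia, Nfkbiz and Zfp36. None of the list was lower. The 1 of 18 is near the 3.97% of all genes. Nfkbia, the NF-kB inhibitor, stood at 543 CPM in TA labelled DMD against 165 CPM in TA labelled WT in mural-like cells. The prostaglandin list of 17 genes had no gene past 2-fold in endothelial-like cells of EOM (0.09) or TA (-0.30). In mural-like cells (0.45 and -0.42) it had 1 of 4 higher in EOM, which was Ptgs2, counted almost wholly in 1 cell. In TA 1 of 4 was lower, Hpgd, the enzyme that breaks prostaglandins down, with 4.50 CPM labelled DMD against 28.8 CPM labelled WT. The inflammasome list of 7 genes had Pycard in endothelial-like cells and Casp1 in mural-like cells higher in EOM, 1 of 4 tested each (0.32 and 0.05), and none in TA (0.00 and 0.59). In macrophage/monocyte-like cells the inflammasome sensor gene Nlrp3 stood at 121 CPM in EOM labelled DMD against 53.6 CPM in TA labelled DMD, 2.26-fold, beside 1 of 7 genes of that list higher.

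The interleukin 1 family list of 13 genes, 4 of them members, had 1 of 4 tested higher in endothelial-like (0.13) and 1 of 3 in mural-like cells (0.56) of EOM, and 1 of 4 (0.41) and 1 of 3 (0.90) in TA, Il33 in each case. The interleukin 6 family list of 13 genes, 4 of them members, had 1 of 6 (0.21) and 3 of 6 (0.89) in EOM and 2 of 6 (0.29) and 2 of 7 (0.20) in TA; outside the members this was Lifr in mural-like cells of EOM, with 61.8 CPM labelled DMD against 24.1 CPM labelled WT. The immediate-early and heat-shock list had 2 higher and 2 lower of 13 in endothelial-like cells of each muscle, 2 higher and 1 lower of 13 in mural-like cells of EOM, and 2 higher of 13 in those of TA.

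The levels of the members over classes and libraries were compared with those of 4352 genes over 30 class and library profiles of at least 50 cells. Profiles of 1 library share its depth and background, so the correlations are descriptions. Il1b was most like Ccl6 (Pearson r = 0.99), Slpi (0.98) and Clec7a (0.98). Il33 was most like Ccn2 (0.88), Cped1 (0.86) and Clic2 (0.83), and Il6 was most like Il33 itself (0.68), then Ier5l (0.67) and Cped1 (0.66). Ptgs2 was most like the matrix genes Mfap5 (0.89), Itgbl1 (0.89) and Lum (0.88). For the receptors, Il6st was most like Sptbn1 (0.90), Osmr most like Rgs16 (0.79) and Il1r1 most like Procr (0.80). Among the members themselves Il33 and Il6st were closest (0.71), and Il1b and Il33 were unrelated (-0.04).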

How the data were processed

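The file headers of these rat EOM and TA libraries name Cell Ranger 4.0.0, and the submitters' processing notes name build rn6 and no annotation. Deposited by the authors are raw UMI counts for each gene and barcode, whole numbers that were not normalized. Cells with at least 500 UMIs, at least 200 genes and at most 20% mitochondrial UMIs were kept (14233 of 17504). Scrublet marked 29 cells, too few to be a working call, so the top 0.8% per 1000 cells by score were removed in its place (676). All libraries were clustered together without batch correction (scanpy 1.11.5, 2000 variable genes, 30 components, 15 neighbours, Leiden resolution 1.0) and classes were named from marker lists. The RT1-Da-led cluster is counted as macrophage/monocyte-like, a Myog-led cluster of 42 cells as myofibre-like, and a cluster with Itgb4 and Klf5 among its leading genes as Schwann-like. UMI counts were summed per class and library and scaled to CPM, with exact Poisson intervals, exact binomial intervals for shares and exact conditional intervals for ratios. Ratios given as folds have no prior; folds are given for members with at least 100 CPM in 1 of the 2 libraries, and others were chosen after their values were seen. From each pathway list, up to 4 genes of that level with the largest ratios could be named. With 1 library in each group no model was fitted and no self-test applied. The members, lists and added comparisons were chosen with earlier results of these data known. Alternatives were other priors, filters, clusterings, thinning and clusters left out.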

Additional observations from a re-analysis of the deposited data

How the results depend on the processing

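Counts of members past 2-fold depended on the amount added to each level. With 50 CPM in place of 10 CPM added, 6 pairs were higher in TA labelled DMD over TA labelled WT, 3 in EOM labelled DMD over EOM labelled WT, and 3 higher and 5 lower in EOM labelled DMD over TA labelled DMD, and none was lower in EOM labelled WT over TA labelled WT (0). With a stricter cell filter (1000 UMIs or more, mitochondrial share 10% or less), EOM labelled DMD over EOM labelled WT gave 3 higher, EOM labelled DMD over TA labelled DMD gave 6 lower, and EOM labelled WT over TA labelled WT gave 0 lower. Thinned to 1000 UMIs, the contrast in EOM gave 3 higher and 1 lower, that in TA 1 lower, EOM labelled DMD over TA labelled DMD 4 higher, and EOM labelled WT over TA labelled WT 0 lower. With no filter on low counts TA gave 1 lower, and with each library clustered alone EOM labelled WT over TA labelled WT gave 3 lower. Without the Rasl11a-led and Ccl11-led clusters, chosen after seeing the data, EOM gave 4 higher and EOM labelled WT over TA labelled WT gave 0 lower. The causes were not tested. With the 10 genes left out of the variable genes every count was as given, and 99.5% of cells kept their class. Of the log2 ratios of named members under the alternatives other than those chosen after seeing the data 198 moved by less than their counting interval, 34 by more, and none changed sign past 2-fold. No paired analysis was possible because each group holds 1 library. Depth limits Il1a, Lif, Tnf and the labelled WT values of Osmr and Ptgs2, and 1 library per group leaves animal, digestion and disease state together.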
